A study of Mus musculus with 9 samples.

Results

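Neuroblastoma cells are known in a sympathetic-like adrenergic state and in a less differentiated mesenchymal state. The genes described here are 10 that go with the mesenchymal state: Anxa2, Vim, Yap1, Wwtr1, Notch2, Snai2, Twist1, Prrx1, Tbx18 and Meox2. They were chosen by name, but with earlier results of these data known, so their counts set against all genes are no independent support. Each was measured by at least 1 probe set of a single gene, and they are 10 of 22180 genes on the arrays. The cells were N1E-115, an established line of mouse neuroblastoma that puts out neurites when serum is withdrawn. Expression was measured on 9 arrays, 1 per sample, in 3 groups of 3. Control cells received 80 nM of control siRNA and were sampled after 4 h or 24 h of differentiation on laminin, and the third group received 80 nM of an siRNA pool against Hmgn5, a nucleosome-binding protein, and was sampled at 24 h. All 3 groups had been transfected, starved of serum overnight and replated, so none shows untransfected or undifferentiated cells, all come from 1 line, and the knockdown rests on 1 siRNA pool.

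In the mesenchymal state, homeobox, T-box, zinc finger and basic helix-loop-helix factors are active that also act in neural crest and connective tissue. Notch receptors and the Hippo pathway feed into it. Hippo kinases keep the coactivators Yap1 and Wwtr1 (also called TAZ) out of the nucleus, and when released these bind Tead factors on DNA. Vimentin filaments and the membrane-binding annexin Anxa2 are among the structural proteins of such cells.

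The promoter sequences of the 3 genes that the comparisons turn on are shown first: Anxa2 and Wwtr1, which fell together over time, and Yap1, the close relative of Wwtr1. Each is the 250 bases before the gene's start, 5′ to 3′ on the gene's strand, from RefSeq (GRCm38.p6). They lie at chr9:69453433-69453682 (plus strand, Anxa2), chr3:57575911-57576160 (minus strand, Wwtr1) and chr9:8004597-8004846 (minus strand, Yap1). Capitals mark matches on either strand to GGAATG, the core letters bound by Tead factors, to TGANTCA, bound by AP-1, and to CANNTG. The last are the general letters of an E-box and do not tell which factor binds.
Anxa2: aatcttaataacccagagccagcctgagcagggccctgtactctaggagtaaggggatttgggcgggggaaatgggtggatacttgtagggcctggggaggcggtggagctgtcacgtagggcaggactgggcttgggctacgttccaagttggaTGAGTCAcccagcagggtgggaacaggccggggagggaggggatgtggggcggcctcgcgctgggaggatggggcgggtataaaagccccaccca
Wwtr1: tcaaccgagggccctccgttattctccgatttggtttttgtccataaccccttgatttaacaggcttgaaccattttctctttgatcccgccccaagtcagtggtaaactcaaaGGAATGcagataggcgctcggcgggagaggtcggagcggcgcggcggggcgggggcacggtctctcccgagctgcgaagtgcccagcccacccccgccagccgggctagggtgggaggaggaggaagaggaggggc
Yap1: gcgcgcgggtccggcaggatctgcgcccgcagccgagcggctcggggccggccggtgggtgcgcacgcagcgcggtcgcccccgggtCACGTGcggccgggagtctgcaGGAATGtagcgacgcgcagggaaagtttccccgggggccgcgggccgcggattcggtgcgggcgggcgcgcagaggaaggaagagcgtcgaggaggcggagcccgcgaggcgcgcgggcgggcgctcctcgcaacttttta
The Anxa2 window held 1 AP-1 match, which starts 95 bases before the gene. The Wwtr1 window held 1 match to the Tead letters, 136 bases before the start shown and 170 before a second RefSeq start of the gene. The Yap1 window held the Tead letters at 141 bases and an E-box at 163, and no matches overlapped. RefSeq promoters were matched for 9 of the 10 genes. Of these 9, 3 held the Tead letters (Wwtr1, Yap1 and Prrx1), 1 the AP-1 letters and 3 an E-box (Yap1, Tbx18 and Meox2). Over 32536 distinct mouse promoters of the same length the shares were 12.6%, 6.73% and 66.2%. A match is a description of the letters, not of binding.

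All values below are on the log2 scale as deposited, where 1 unit is a doubling of signal. Hmgn5 itself stood at 4.71 ± 0.06 in control cells at 24 h and at 3.49 ± 0.04 after Hmgn5 siRNA (mean ± SD, n = 3 each), a fall to 43.1% of the control signal (limma adjusted p = 0.00367; exact two-sided permutation p = 0.1, the smallest that 3 arrays against 3 allow). The adjusted p rose above 0.05 when replicate 1 of the 24 h controls (0.0558) or when replicate 2 or 3 of the knockdown (0.0552 and 0.0506) was dropped. One array, replicate 2 of the 4 h controls, fitted its group poorly (weight 0.198, against 0.789 to 1.74 elsewhere), and values without it are given beside the time differences of Anxa2, Wwtr1 and Vim and of the called genes of the lists. The labels do not say that replicates were separate cultures. The p-values here therefore set differences between groups against the spread among these samples, which may be only technical.

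The cells carried markers of sympathetic neuroblasts. Of 9 measured neuroblast markers, 8 lay above the median probe set on every array, among them Th and Dbh of catecholamine synthesis, the granule gene Chga and the transcription factor gene Hand2. Of 10 fibroblast markers 5 did, of 6 leukocyte markers 1 did and of 6 endothelial markers 2 did. Schwann cell markers gave 3 to 4 of 6. The mesenchymal regulators Prrx1 and Tbx18 exceeded at most 40.1% and 41.1% of probe sets on any array and Snai2 at most 48.2%, with Meox2 dimmer still. Twist1 exceeded 55.5% to 60.7%, Yap1 64.8% to 67.7%, Wwtr1 66.4% to 74.1%, Notch2 75.6% to 78.9%, Anxa2 78.5% to 86.0% and Vim 99.6% to 99.8%. Probe sets differ in their response, so these places do not order the transcripts, and background was not estimated for the low ones. The name of the state is that of the gene list, and the state of the cells was not measured apart from these genes.

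Between 4 h and 24 h in control cells, Anxa2 and Wwtr1 fell and the other 8 genes did not pass the test. Anxa2, which binds phospholipid membranes in the presence of calcium, fell to 59.9% of its 4 h signal, and Wwtr1, a coactivator of Tead factors, to 61.3%. So 2 of the 10 genes were called lower and 0 higher, where 2.17% of all genes were called lower and 2.17% higher (limma, Benjamini-Hochberg adjusted p under 0.05 over all genes), 4.34% in all. With arrays centred on their medians the split over all genes was 477 higher and 309 lower, in place of 481 and 482. The median difference of the 10 was 0.04 log2 units, with 7 above 0 and 3 below, and that of all genes was 0.02, with 54.9% above 0 and 45.1% below. At an unadjusted p under 0.05 there were 3 of the 10, against 18% of all genes. As the 10 were chosen with earlier results of these data known, these counts are a description.

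Anxa2 read 8.55, 8.65 and 8.48 on the 4 h control arrays and 7.77, 7.85 and 7.83 on the 24 h control arrays. Every 24 h value was lower than every 4 h value, and the groups were separated by far more than their spread. The mean went from 8.56 ± 0.08 to 7.82 ± 0.04 (SD, n = 3 each), a log2 difference of -0.74 with SE 0.07 (95% interval -0.89 to -0.59, limma adjusted p = 0.00065). By size it ranked 123 of all 22180 genes, either sign counted. The call held with each array left out in turn, with differences between -0.78 and -0.70, the latter without replicate 2 of the 4 h controls.

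Wwtr1 read 7.26, 7.02 and 7.28 at 4 h and 6.54, 6.45 and 6.46 at 24 h in control cells. The groups did not overlap, and the lowest 4 h value was that of the array that stood apart. The mean went from 7.19 ± 0.15 to 6.48 ± 0.05, by -0.71 with SE 0.09 (95% interval -0.91 to -0.51, adjusted p = 0.00398). Without control 4 h replicate 2 the difference was -0.79 (adjusted p = 0.00218). Both falls exceeded 1.5-fold as point estimates, but neither passed a test against a minimum change of 1.5-fold (adjusted p = 1 for each).

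**Figure D1:**
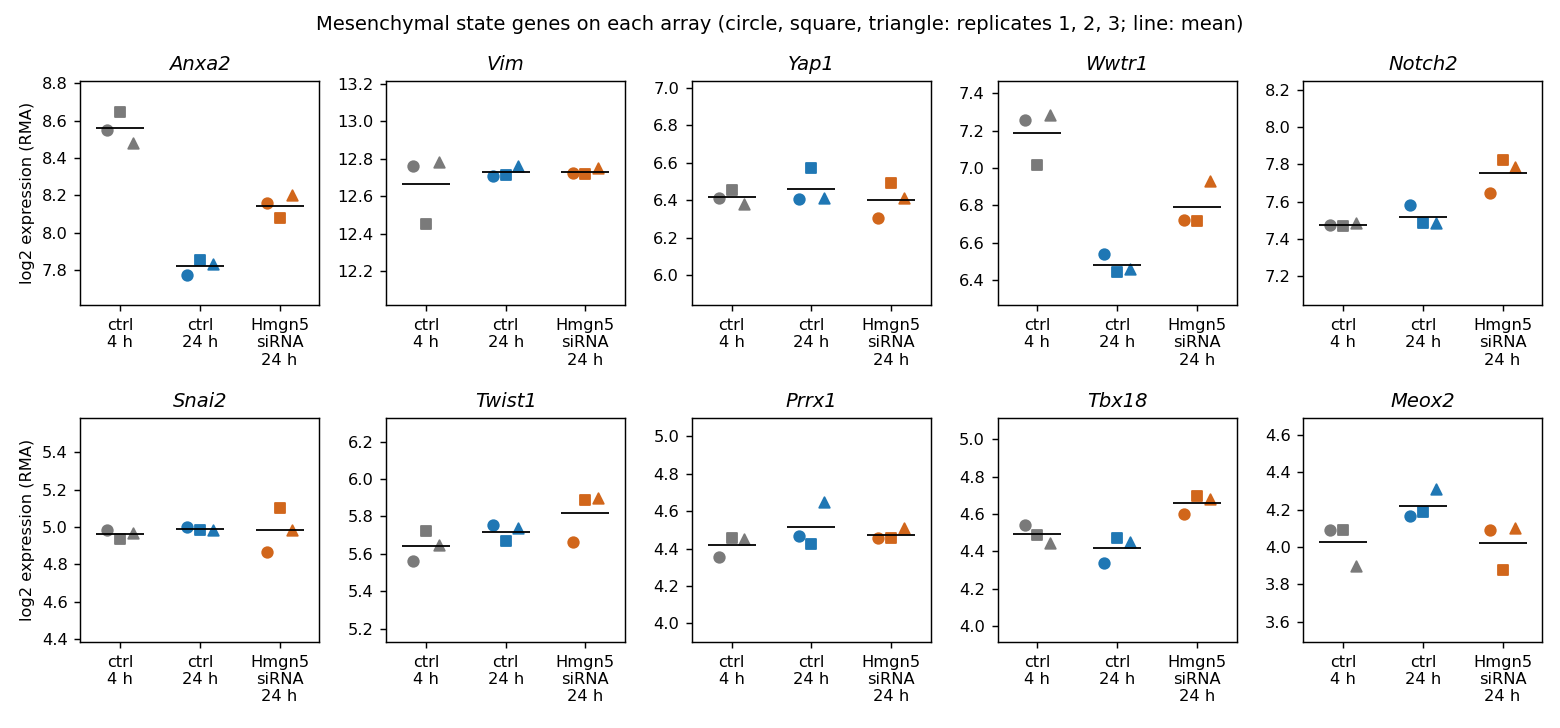
Log2 expression of the 10 genes on each of the 9 arrays, by group on the horizontal axis, with circles, squares and triangles for replicates 1, 2 and 3 and a line at the group mean. Every panel spans the same width in log2 units. Anxa2 and Wwtr1 are high at 4 h, low in control cells at 24 h and between these after Hmgn5 siRNA, while Vim, Yap1, Snai2 and Prrx1 overlap between all groups.

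Yap1, the other coactivator, did not pass. It read 6.41, 6.46 and 6.38 at 4 h and 6.40, 6.57 and 6.41 at 24 h in control cells, and the groups overlapped. Its difference of 0.05 (SE 0.07, 95% interval -0.11 to 0.21, adjusted p = 0.792) has an interval that does not reach the fall of Wwtr1. A second, dimmer Yap1 probe set gave 0.04. Taken array by array, the Wwtr1 value minus the Yap1 value went from 0.77 ± 0.18 at 4 h to 0.02 ± 0.13 at 24 h in control cells (SD, n = 3 each; exact two-sided permutation p = 0.1, the smallest possible). That pair was chosen after the values were seen.

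Vim, the main intermediate filament gene of mesenchymal cells, read 12.76, 12.45 and 12.78 at 4 h and 12.71, 12.71 and 12.76 at 24 h. The low 4 h value was again that of replicate 2, and without it the difference of 0.06 (adjusted p = 0.763) turned to -0.04 (adjusted p = 0.707). A second Vim probe set gave 0.25 over time, with an SD of 0.43 among the 4 h arrays. Notch2, a receptor that is cut on ligand binding to release a transcriptional coactivator, read 7.47, 7.47 and 7.49 at 4 h and 7.58, 7.49 and 7.49 at 24 h, a difference of 0.04 (adjusted p = 0.805).

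Among the transcription factors only Meox2, a homeobox gene of somites and vessels, had control groups that did not overlap. It read 4.09, 4.09 and 3.90 at 4 h and 4.17, 4.19 and 4.31 at 24 h, with a difference of 0.19 (SE 0.09, adjusted p = 0.273). Of all genes 11.3% had 24 h values all above the 4 h values, and 9.98% all below, as Anxa2 and Wwtr1 had. For the zinc finger repressor gene Snai2 the difference was 0.03, and its 95% interval ran from -0.12 to 0.18. Twist1, a basic helix-loop-helix factor of neural crest, differed by 0.08 (-0.10 to 0.25) and the homeobox gene Prrx1 by 0.09 (-0.07 to 0.25). The T-box gene Tbx18 differed by -0.07 (-0.21 to 0.07).

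Of the 9 neuroblast markers measured, 2 rose over the same hours, Dbh by 0.80 (adjusted p = 0.00535) and Th by 0.53 (adjusted p = 0.0188), and 7 did not pass. Over all genes 2.17% were called higher. At an unadjusted limma p under 0.05 there were 6 of the 9 markers, against 18% of all genes. All 24 h values lay above all 4 h values for 7 markers and below them for 1, against 11.3% and 9.98% of all genes. Without replicate 2 of the 4 h controls Dbh differed by 0.67 and Th by 0.47. The mean log2 level of the 9 was 10.3 on 4 h replicates 1 and 3, 10.1 on the poorly fitting replicate 2 and 10.5 on each of the 24 h control arrays. Th no longer passed when either replicate 1, 2 or 3 of the 24 h controls was dropped (adjusted p up to 0.0774). Mean levels of fibroblast markers overlapped between the times, at 4.99 to 5.07 and 5.05 to 5.10. Those of the 6 Schwann cell markers were 5.26, 5.15 and 5.27 on 4 h replicates 1, 2 and 3 and 5.33 to 5.36 at 24 h. The largest difference among these 6 was that of Erbb3 (0.59, limma adjusted p = 0.13). Their median difference was 0.03, with 4 above 0 and 2 below. Endothelial markers lay at 4.69 to 4.72 and 4.60 to 4.69, and leukocyte markers at 4.51 to 4.61 and 4.50 to 4.60. The part of such levels in the falls of Anxa2 and Wwtr1 was not tested.

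At 24 h, Hmgn5 siRNA gave higher values of Anxa2, Wwtr1, Tbx18 and Notch2 than control siRNA on all arrays, and none of the 10 genes passed the test. Across all genes 0.0135% were called in this comparison, 0.00902% higher and 0.00451% lower. The median difference of the 10 was 0.05, with 6 above 0 and 4 below, against 0.00 over all genes, of which 49.2% were above 0 and 50.8% below. At an unadjusted p under 0.05 there were 5 of the 10, against 5.25% of all genes. The list was taken up with earlier results of this comparison known, so these counts are no independent support. Groups did not overlap for 4 genes upward, against 6.65% of all genes, and for 1 downward, against 5.62%.

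Anxa2 read 8.16, 8.08 and 8.20 after Hmgn5 siRNA, against 7.77 to 7.85 in control cells at 24 h. All 3 knockdown values were higher, and their mean was 8.15 ± 0.06 (SD, n = 3). The difference was 0.32 with SE 0.07, a 1.25-fold higher signal (95% interval 0.18 to 0.47, adjusted p = 0.341). Over the alternatives run, its adjusted p lay between 0.0945 and 1.

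Wwtr1 read 6.72, 6.72 and 6.93 after Hmgn5 siRNA, and the third replicate was the highest. The mean of 6.79 ± 0.12 was above the control by 0.31 with SE 0.09 (95% interval 0.11 to 0.51, adjusted p = 0.742). Without Hmgn5 siRNA replicate 3 the difference was 0.24. Yap1 read 6.31, 6.49 and 6.41, within the span of its control values except for the first, and differed by -0.06 (95% interval -0.22 to 0.10, adjusted p = 0.999).

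Notch2 read 7.65, 7.82 and 7.78 after Hmgn5 siRNA, all above the 24 h controls. The difference was 0.23 with SE 0.06 (95% interval 0.09 to 0.38, adjusted p = 0.661), between means of 7.52 ± 0.05 and 7.75 ± 0.09. Tbx18 read 4.34, 4.47 and 4.45 in control cells at 24 h and 4.60, 4.69 and 4.68 after Hmgn5 siRNA, a difference of 0.24 with SE 0.06 (95% interval 0.10 to 0.38, adjusted p = 0.618). These are small shifts, for Tbx18 at the dim end of the array.

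Meox2 moved the other way, with 4.09, 3.88 and 4.10 after Hmgn5 siRNA, all below the 24 h controls (difference -0.20, SE 0.09, 95% interval -0.39 to -0.0046, adjusted p = 0.944). Twist1 read 5.75, 5.67 and 5.74 in control cells and 5.66, 5.89 and 5.90 after Hmgn5 siRNA, so the groups overlapped (difference 0.10, 95% interval -0.08 to 0.27). Vim (0.00, 95% interval -0.19 to 0.20), Snai2 (0.00, -0.16 to 0.15) and Prrx1 (-0.04, -0.20 to 0.12) overlapped as well. For these 3 genes the sign of the difference turned when single arrays were left out.

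**Figure D2:**
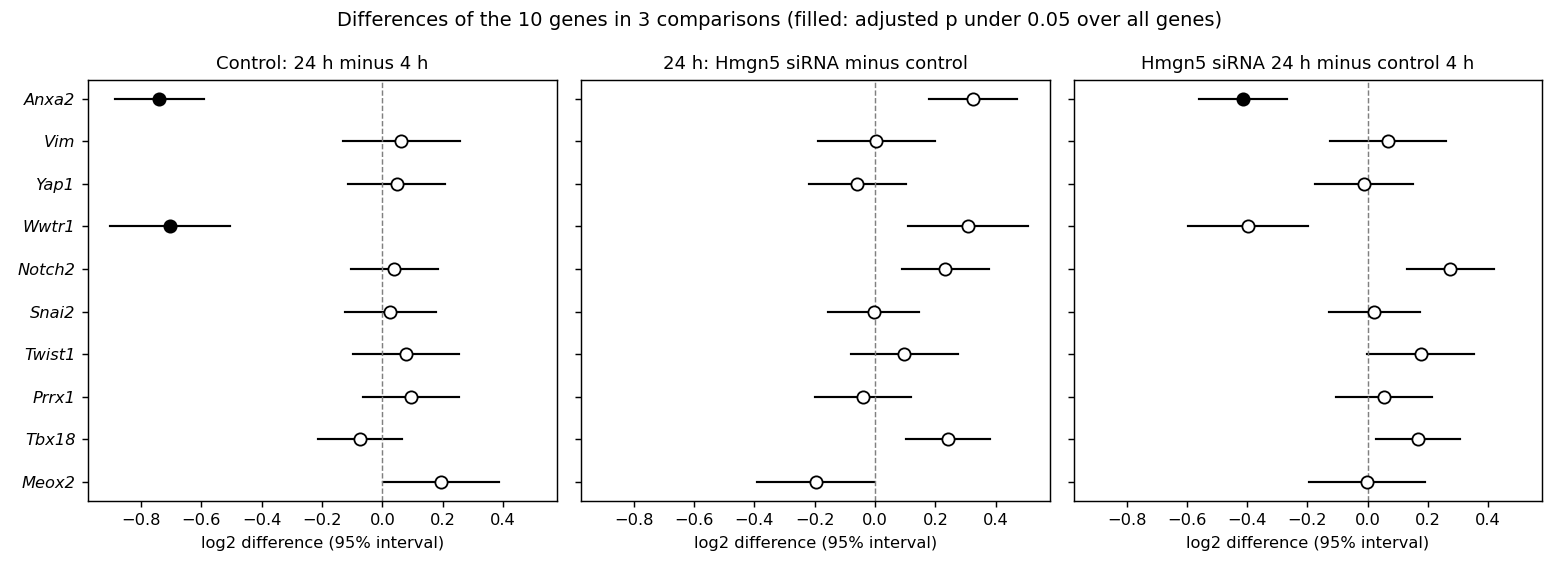
Log2 differences of the 10 genes with their 95% intervals from the limma fit, for time in control cells (24 h minus 4 h), for the knockdown (minus control, both 24 h) and for the knockdown minus the 4 h controls. Filled points passed at an adjusted p under 0.05 over all genes: Anxa2 and Wwtr1 at -0.74 and -0.71 in the first panel, none in the second and Anxa2 at -0.41 in the third.

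The third comparison sets Hmgn5 siRNA at 24 h against control siRNA at 4 h, where siRNA and time differ together. All 3 comparisons share arrays, so their values are given side by side only. For Anxa2 they were -0.74 over time in control cells, 0.32 at knockdown and -0.41 from control 4 h to Hmgn5 siRNA 24 h, where the fall passed (SE 0.07, adjusted p = 0.0133, to 75.0% of the 4 h signal). For Wwtr1 they were -0.71, 0.31 and -0.40, and the last missed the threshold (SE 0.09, adjusted p = 0.0516). The knockdown values of both genes lay above all 24 h control values and below all 4 h values. In this comparison 1 of the 10 genes was called lower and 0 higher, against 1.04% and 1.52% of all genes, 2.57% together. With arrays centred on their medians the split over all genes was 375 higher and 148 lower, in place of 338 and 231. Of the 10 genes 6 lay above 0 and 4 below, against 51.9% and 48.1% of all genes, and 4 had an unadjusted p under 0.05, against 15.7%. Anxa2 no longer passed when knockdown replicate 1 or 2 was dropped (adjusted p = 0.0581 and 0.0640), and Wwtr1 passed without control 4 h replicate 2 (-0.48, adjusted p = 0.0167).

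Notch2 and Tbx18 had another order of levels. Their means at 4 h and 24 h in control cells differed by less than their intervals, and the Hmgn5 siRNA arrays were the highest. Against control 4 h, Notch2 was higher by 0.27 (SE 0.06, adjusted p = 0.0599) and Tbx18 by 0.17 (SE 0.06, adjusted p = 0.222), with no overlap for either. Of all genes 10.3% lay all above and 8.59% all below in that comparison. Meox2 averaged 4.02 ± 0.13 after Hmgn5 siRNA and 4.03 ± 0.11 at 4 h.

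The other genes of the Notch pathway showed single changes over time. Beside the counts of this and the following lists, 2.17% of all genes were called higher over time and 2.17% lower. Of 27 measured receptors, ligands, processing enzymes and nuclear partners, 2 were called higher at 24 h than at 4 h in control cells. None was called lower, and the median difference was 0.07. Maml2, a coactivator that joins the Notch complex on DNA, rose to 7.87 ± 0.10 (difference 0.87, adjusted p = 0.00232), and the E3 ligase gene Dtx1 rose from 8.55 ± 0.09 (difference 0.45, adjusted p = 0.0062). Without replicate 2 of the 4 h controls these differences were 0.97 and 0.40. Of 6 target genes, Hey2, a repressor induced by Notch, fell by 0.49 (adjusted p = 0.0215), a call that did not hold when replicate 1 of the 24 h or of the 4 h controls was dropped (adjusted p = 0.0507 and 0.0565) or when only the 2 control groups were fitted (0.0758). Without replicate 2 of the 4 h controls Hey2 differed by -0.46. At knockdown none of either list passed. Dtx1 (-0.30, adjusted p = 0.418) and the target gene Heyl (-0.28, adjusted p = 0.926) had the smallest p, and all Hmgn5 siRNA values of both lay below the controls. The other receptor genes Notch1 and Notch3, named here beside Notch2 and outside the naming rule, differed by -0.03 and -0.01 at knockdown.

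Of 13 measured Hippo pathway genes, Mob1a, a cofactor of the Lats kinases that restrain Yap1 and Wwtr1, fell over time by 0.28 (adjusted p = 0.0335). That call did not hold when any array but replicate 2 of the 4 h controls was dropped (adjusted p = 0.0528 to 0.117; -0.32 without replicate 2). With all arrays it was also lost with the replicate number as a block (0.0617), with only the 2 control groups fitted (0.101) and with arrays centred on their medians (-0.24, adjusted p = 0.125). None rose. The 4 Tead genes differed by -0.09 to 0.01 over time and by -0.07 to 0.16 at knockdown, and none passed. Of 21 measured target genes of Yap1 and Wwtr1 none passed in either comparison, with medians of 0.03 over time and -0.01 at knockdown. Those with the smallest p at knockdown were the tissue factor gene F3 (0.31, adjusted p = 0.833) and Fjx1 (0.37, adjusted p = 0.841), whose Hmgn5 siRNA values all lay above the controls. Over time Fjx1 differed by -0.37 (adjusted p = 0.136) and Ccdc80 by 0.40 (adjusted p = 0.172). The common reporters of this pathway, the matricellular genes Ccn1 and Ccn2 (named outside the rule), differed by 0.07 each over time and by -0.03 and -0.16 at knockdown.

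No other measured annexin passed. Over 11 genes, the other annexins and S100a10, which pairs with Anxa2 at the membrane, the median was 0.05 over time and -0.07 at knockdown. At knockdown 9 of the 11 lay below 0, against 50.8% of all genes. S100a10, named outside the rule, differed by 0.07 over time (adjusted p = 0.681), where Anxa2 fell. Anxa7 (0.47, adjusted p = 0.0915) and Anxa10 (-0.20, adjusted p = 0.168) had the smallest p over time, and Anxa4 (-0.07) and Anxa6 (-0.12) at knockdown. Of 12 other intermediate filament genes, Des, the desmin gene of muscle, fell over time from 6.92 ± 0.23 by 0.92 (adjusted p = 0.00575; -1.05 without replicate 2 of the 4 h controls). None passed at knockdown, with a median of 0.04.

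**Figure D3:**
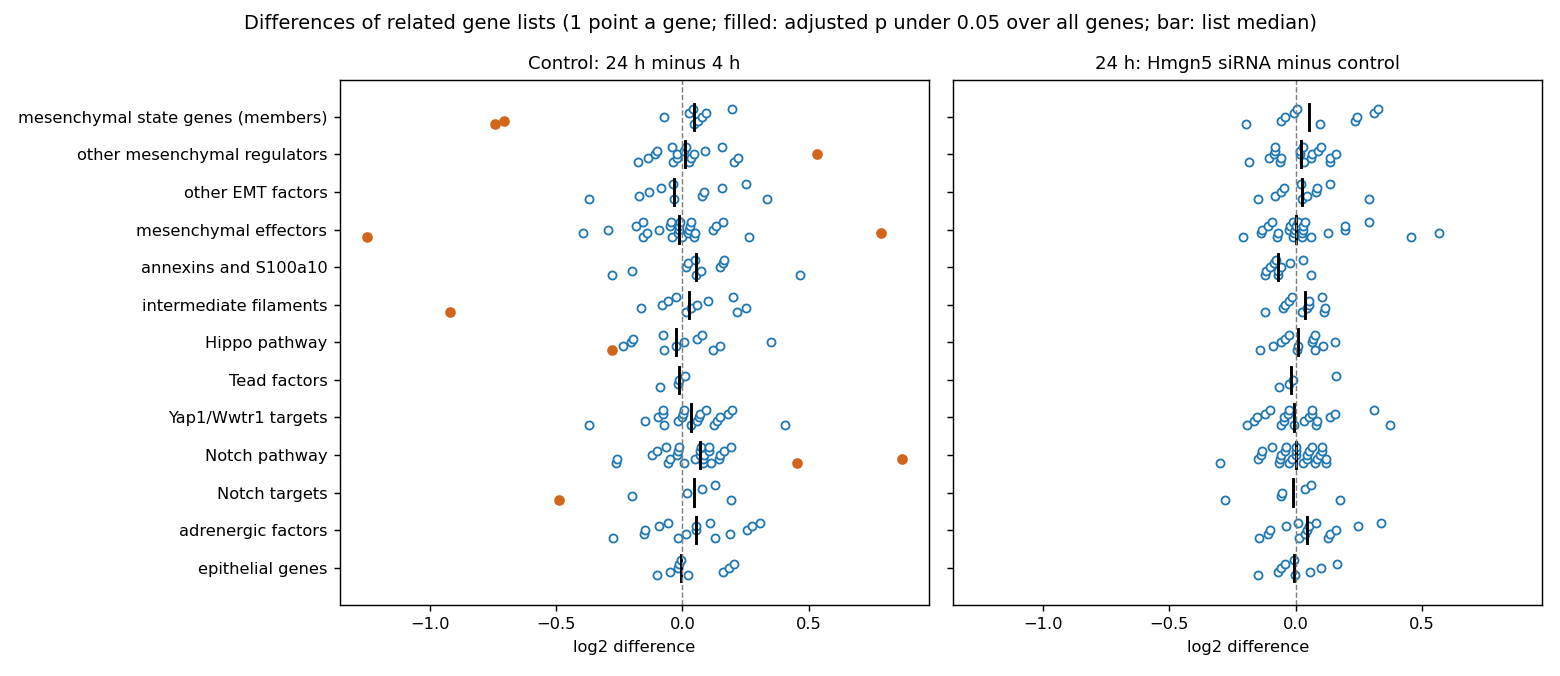
Log2 differences of the 10 genes and of 12 related gene lists, 1 point for each measured gene, for time in control cells and for the knockdown at 24 h. Filled points passed at an adjusted p under 0.05 over all genes and bars mark list medians. List medians lie between -0.07 and 0.07 in both panels, and filled points appear only in the panel of time.

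Of the other mesenchymal genes, 3 passed over time and none at knockdown. Of 18 further regulators tied to the mesenchymal state, Creg1, a secreted glycoprotein, rose over time by 0.53 (adjusted p = 0.00809; 0.46 without replicate 2 of the 4 h controls), and the list median was 0.01. Of 11 other factors of epithelial to mesenchymal transition none passed, and Foxc2 (0.33, adjusted p = 0.0928) and Snai1 (0.25, adjusted p = 0.258), a relative of Snai2, had the smallest p. Of 27 adhesion, contractile and secreted genes, the actin-binding calponin gene Cnn2 fell from 8.20 ± 0.13 to 6.95 ± 0.10 (adjusted p = 0.000436), a difference of -1.25, or -1.32 without replicate 2 of the 4 h controls. The calcium-binding protein gene S100a6 rose by 0.79 (adjusted p = 0.0215), a call that did not hold when replicate 1, 2 or 3 of the 24 h controls was dropped (adjusted p up to 0.0813) or when only the 2 control groups were fitted (0.0927). Without replicate 2 of the 4 h controls S100a6 differed by 0.56. At knockdown none of these 3 lists had a called gene, and medians were 0.02, 0.03 and 0.00. Cnn2 (0.57, adjusted p = 0.208), the matrix gene Sparc (0.46, adjusted p = 0.294), Fn1 (0.29) and Cald1 (0.19) had the smallest p among the effectors. Of 9 epithelial genes none passed in either comparison.

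Adrenergic factors are the counterpart of these genes. Of 15 measured, none was called over time or at knockdown, with medians of 0.05 in both. Over time Tfap2b (0.31, adjusted p = 0.0555) and Dach1 (0.27, adjusted p = 0.0584) had the smallest p, and at knockdown Isl1 (0.34, adjusted p = 0.926) and Gata2 (0.16, adjusted p = 0.951). At knockdown the mean level of the neuroblast markers was 10.4 on each array, below the 10.5 of the 24 h controls. Slc18a2 (-0.36, adjusted p = 0.341), Dbh (-0.42, adjusted p = 0.595) and Chgb (-0.06, adjusted p = 0.992) lay below the controls on all arrays. They were 3 of the 9 markers measured, against 5.62% of all genes, and no marker was called. The median difference of the 9 was -0.06, with 3 above 0 and 6 below, against 49.2% and 50.8% of all genes. Fibroblast marker means overlapped, at 5.06 to 5.08 against 5.05 to 5.10. The part of these levels in the knockdown values of the 10 genes was not tested.

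The genes whose profile over the 9 arrays was nearest to that of Anxa2 were the kinesin gene Kif21b, Fastkd1, which acts on mitochondrial RNA, and the transcription factor gene Klf5. Likeness was the root mean square difference of values centred on each gene's mean, which was 0.07 for each, where Anxa2 itself departed from its mean by 0.31. All 3 fell over time in control cells, by 0.76, 0.69 and 0.65 (adjusted p = 0.00129, 0.00209 and 0.00377). At knockdown each differed by 0.32 and did not pass. The genes nearest to Wwtr1 were Mtbp, the cGMP-dependent kinase gene Prkg1 and Hspbap1, at 0.08, 0.10 and 0.10, and they fell over time by 0.62, 0.72 and 0.55 (adjusted p = 0.0165, 0.000447 and 0.0165). Mtbp no longer passed when replicate 1 or 2 of the 24 h controls or replicate 3 of the 4 h controls was dropped (adjusted p up to 0.0712). Hspbap1 no longer passed when replicate 2 or 3 of the 24 h controls or replicate 3 of the 4 h controls was dropped (up to 0.0598) or when only the 2 control groups were fitted (0.0749). Nearest to Notch2 were Klrb1c, Tmem170b and Aunip, at 0.05, 0.05 and 0.06, and none of them passed in either comparison. These genes were picked for their likeness over all 9 arrays, so their changes are a description.

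**Figure D4:**
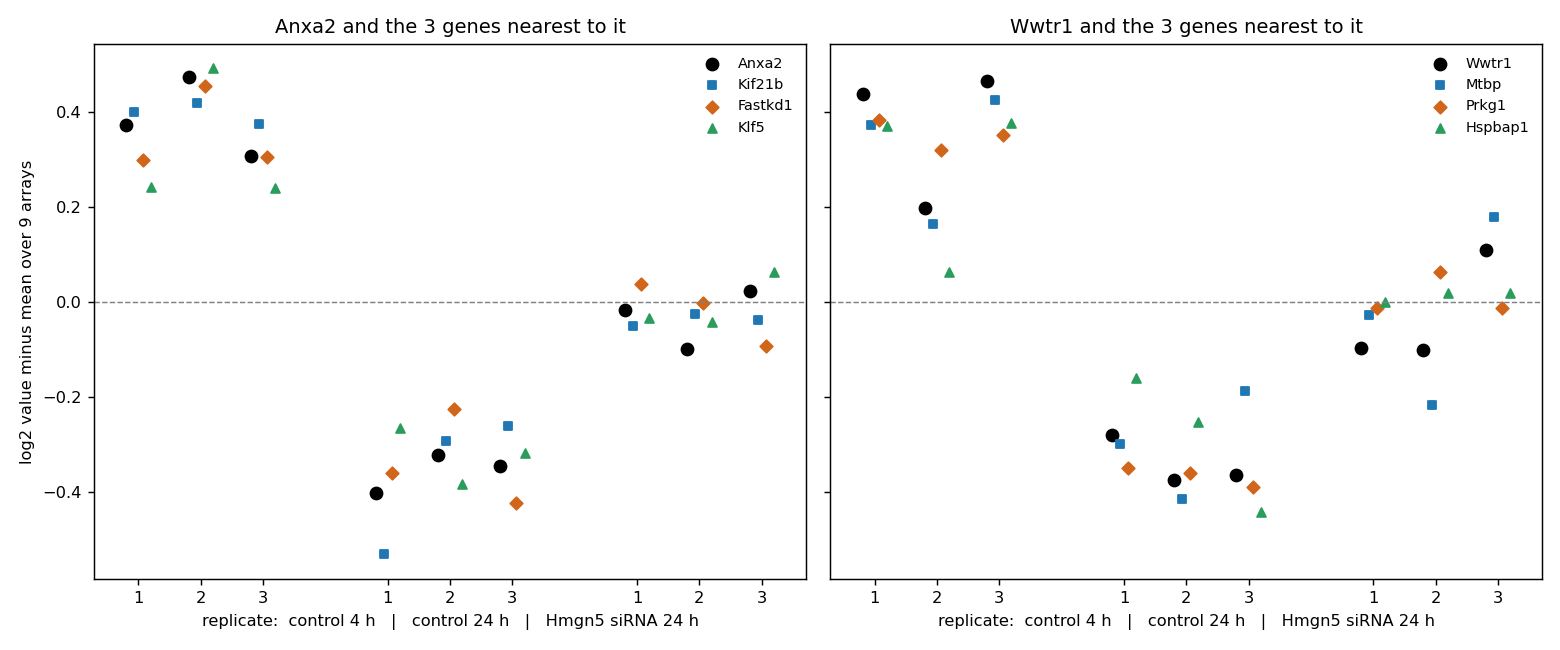
Log2 values of Anxa2 and Wwtr1, each with the 3 genes nearest to it, minus each gene's mean over the 9 arrays, for replicates 1 to 3 of each group from left to right. All 8 genes lie above their mean on the 4 h arrays and below it on the 24 h control arrays, and after Hmgn5 siRNA every value but 1 of Mtbp lies above all 24 h control values of its gene.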

How the data were processed

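RNA of 9 N1E-115 samples was measured on Affymetrix whole-transcript arrays. Values were deposited as log2 expression of each probe set, made with oligo and RMA (per the submitters' processing notes); versions and genome build are not given in the sources used here. RMA equalises arrays, which can hide a shift common to most genes. Platform annotation gave 1 gene symbol for 23521 of 41345 probe sets, and 23328 of these matched RefSeq. Each gene was represented by its brightest probe set (mean of the 9 arrays), which affected Yap1 and Vim among the members.

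All 22180 genes were fitted with limma 3.58.1 (R 4.3.3), 3 group means, lmFit and eBayes, with Benjamini-Hochberg adjustment over all genes and calls under 0.05. Intervals of 95% come from the same fit. Each list was described by counts and medians, with no set test. The steps were tested on simulated data with 200 changed genes, 50 each by 0.3, 0.5, 1 and 2 log2 units. In the knockdown comparison 84% of the genes changed by 0.5 and 10% of those changed by 0.3 were called. The adjustment depends on how many genes change, and the real knockdown comparison had 3 called genes. These shares therefore do not give the share of real changes of that size that would be called. Groups and replicate numbers came from the sample titles. Promoters were searched by exact letters on both strands.

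The members and lists were chosen with earlier results of these data known. Named genes are the members, Hmgn5, up to 6 called genes a list (or the 4 with the smallest p where none was called; fewer are printed), and the 3 genes nearest to each of the 3 members with the widest range of group means. The alternatives were a replicate block, fits restricted to each pair of groups, a trended robust prior, array weights, a filter on the dimmest 33%, cyclic loess, median centring, the mean of probe sets, a minimum change of 1.5-fold and leaving out each array.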

Additional observations from a re-analysis of the deposited data

How the results depend on the processing

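Over time, Anxa2 and Wwtr1 were called lower under all alternatives run but the minimum change of 1.5-fold, which called 0. No member was called at knockdown under any of the 18 alternatives (unadjusted p under 0.05: 5 of 10). From control 4 h to Hmgn5 siRNA 24 h, 2 members were called lower with the replicate block, array weights, the dim filter or cyclic loess, and 0 with only the 2 groups compared or the minimum change. In that comparison 1 was called higher, Notch2, with array weights, the dim filter or median centring. Leaving out arrays gave 0 to 2 lower and 0 higher. The dim filter removed Prrx1, Tbx18, Meox2 and Hmgn5.

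Deviations from group means correlated by 0.01 to 0.29 between same-numbered arrays. Among arrays of the other groups, all 9 arrays correlated best with one of their own number. Samples with the same number may therefore share a source of variation, which the main fit did not model. The labels do not say whether they were made together, so the number was a block only in an alternative. With the replicate block, no gene was called higher at knockdown, no member's call over time changed, and Mob1a was no longer called over time (adjusted p = 0.0617).

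Over all genes, calls at knockdown (2 higher, 1 lower) became 0, 1, 4 and 6 higher with the replicate block, the 2 groups only, the trended prior and array weights. The minimum change called 0 in both directions, the dim filter 0 lower, and leaving out arrays gave 0 to 1 higher and 0 to 2 lower. Over time (481 and 482) the 2 groups only gave 161 higher and 119 lower, array weights 807 and 878, median centring 309 lower (477 higher), the minimum change 1 and 2, and arrays left out 178 to 586 and 132 to 652. From control 4 h to Hmgn5 siRNA 24 h (338 and 231) these were 75 and 38, 697 and 529, 148 lower, 0 and 1, and 95 to 445 and 60 to 339. Hmgn5 at 24 h kept its difference of -1.21 but was not called with the minimum change (adjusted p = 0.559), and ranged from -1.24 to -1.18 with arrays left out.

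Signs turned only for differences near 0. At knockdown they were Prrx1 (-0.083 to 0.027 with arrays left out), Snai2 (0.013 with cyclic loess, 0.0036 with median centring, -0.064 to 0.054 with arrays left out) and Vim (-0.014 with cyclic loess, -0.0054 to 0.020 with arrays left out). Over time they were Yap1 (-0.0068 to 0.076 with arrays left out) and Vim (-0.028 with array weights, -0.043 to 0.12 with arrays left out). From control 4 h to Hmgn5 siRNA 24 h they were Yap1 (0.036 with median centring, -0.057 to 0.037 with arrays left out), Snai2 (-0.037 to 0.081), Vim (-0.024 with array weights, -0.039 to 0.13 with arrays left out) and Meox2 (0.037 with array weights, 0.0088 with cyclic loess, 0.045 with median centring, -0.067 to 0.071 with arrays left out). The cause of these changes was not tested. The number of arrays limits the precision.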
